A study of Homo sapiens with 6 samples.

Results

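The transcription factors of the SNAI, TWIST and ZEB families were followed in A204 cells given the histone deacetylase (HDAC) inhibitor SAHA (vorinostat). The set was listed by gene name, chosen with earlier results of these data known, and holds 10 genes of 18417 tested. These are SNAI1, SNAI2, SNAI3, TWIST1, TWIST2, ZEB1, ZEB2 and PRRX1, together with VIM and GRHL2. VIM encodes the intermediate filament protein vimentin, and GRHL2 is an epithelial factor that opposes the others. The last 2 are therefore not mesenchymal transcription factors. A204 is an established human line from a rhabdoid tumour, a cancer that typically lacks SMARCB1, a core protein of SWI/SNF chromatin remodellers. Total RNA was measured on 6 Affymetrix whole-transcript arrays. The SAHA group held 3 arrays of cells exposed for 12 h. The control group held 3 arrays of cells that received DMSO by the treatment protocol, although a second label gives their treatment as none. The dose is printed as a number with an incomplete unit and is not stated here. All arrays came from this single line, and nothing in the labels ties each array to a culture of its own. The p-values therefore reflect array-to-array spread that may be technical only, and the number of arrays limits the precision.

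These genes are known as the core regulators of the epithelial-mesenchymal transition, in which epithelial cells lose their junctions and keratins and gain a motile, fibroblast-like state. SNAI and ZEB proteins are zinc-finger repressors that bind E-box sequences before epithelial genes such as CDH1, the E-cadherin gene. The SNAI proteins recruit HDAC1, HDAC2 and the demethylase KDM1A through a short N-terminal SNAG motif, and the ZEB proteins recruit the CtBP corepressors. TWIST proteins are basic helix-loop-helix factors that pair with E proteins, and PRRX1 is a homeobox factor of mesenchyme. GRHL2 maintains epithelial junctions, and ZEB1 and GRHL2 are known to repress each other. MicroRNAs of the miR-200 family repress ZEB1 and ZEB2, and miR-34a represses SNAI1.

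The mature sequences of these microRNAs are shown because they fall into separate seed groups, which fix the sites they can pair with. The seed, bases 2 to 8 from the 5′ end, is in capitals, and the sequences are those of RefSeq (GRCh38.p14).
hsa-miR-200b-3p: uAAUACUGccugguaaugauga
hsa-miR-200c-3p: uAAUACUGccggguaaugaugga
hsa-miR-429: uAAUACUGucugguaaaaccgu
hsa-miR-200a-3p: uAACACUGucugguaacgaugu
hsa-miR-141-3p: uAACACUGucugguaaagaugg
hsa-miR-34a-5p: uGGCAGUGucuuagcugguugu
The miR-200b, miR-200c and miR-429 sequences share the seed AAUACUG, miR-200a and miR-141 share AACACUG, and miR-34a has GGCAGUG.

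The E-box read by SNAI and ZEB proteins was searched as CAGGTG or CACCTG, which are one motif on opposite strands, in the 250 bases before each RefSeq start site. Of 27305 genes with such a window, 20.6% held at least 1 match in any of their windows, and 0.568% held 3 or more. Of the 10 genes, 5 had windows in the table (PRRX1, TWIST2, VIM, ZEB1 and ZEB2). ZEB1 was the only one of these 5 with a match, in 2 of its 7 windows. Its most upstream window, with 1 match, is printed below with those of CRB3, CLDN7 and AP1M2, the epithelial genes of the junction list with 3 or more matches. CRB3 encodes a polarity protein, CLDN7 a tight junction claudin and AP1M2 an epithelial sorting adaptor. E-boxes are in capitals, and each sequence is given 5′ to 3′ on the gene's strand, from RefSeq (GRCh38.p14). A match is a description of the letters and not a measured binding site.
ZEB1 (chr10:31318167-31318416, plus strand): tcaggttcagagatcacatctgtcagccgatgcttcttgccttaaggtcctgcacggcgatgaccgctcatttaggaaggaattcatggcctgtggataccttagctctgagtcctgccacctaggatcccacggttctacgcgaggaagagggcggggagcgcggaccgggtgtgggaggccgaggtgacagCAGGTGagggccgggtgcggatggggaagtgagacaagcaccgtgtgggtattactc
CRB3 (chr19:6464021-6464270, plus strand): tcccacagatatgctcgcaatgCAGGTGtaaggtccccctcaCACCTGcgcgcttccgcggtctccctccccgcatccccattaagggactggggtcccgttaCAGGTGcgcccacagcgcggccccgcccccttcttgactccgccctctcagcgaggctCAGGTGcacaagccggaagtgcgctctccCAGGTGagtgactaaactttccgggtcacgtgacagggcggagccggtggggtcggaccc
CLDN7 (chr17:7262479-7262728, minus strand): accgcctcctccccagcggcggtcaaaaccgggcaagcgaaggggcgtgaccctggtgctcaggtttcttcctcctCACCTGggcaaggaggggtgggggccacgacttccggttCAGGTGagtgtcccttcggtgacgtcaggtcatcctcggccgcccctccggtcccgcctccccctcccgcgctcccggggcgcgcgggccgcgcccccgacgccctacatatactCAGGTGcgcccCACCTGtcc
AP1M2 (chr19:10587313-10587562, minus strand): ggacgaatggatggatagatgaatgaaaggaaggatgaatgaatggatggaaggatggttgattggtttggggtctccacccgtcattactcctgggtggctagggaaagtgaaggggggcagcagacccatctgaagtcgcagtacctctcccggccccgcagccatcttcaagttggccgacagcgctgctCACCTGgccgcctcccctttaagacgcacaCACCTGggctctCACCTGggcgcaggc

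The arrays were alike within a group. The median signal per array was between 142 and 149 on the linear scale, and Pearson correlations of log2 levels across 33252 probe sets were 0.9965 to 0.998 within groups and 0.9728 to 0.9738 between groups. Every level below is the deposited RMA signal on the log2 scale, and every change is the SAHA mean minus the control mean. Levels of different probe sets are not comparable with each other. Genes were called at an adjusted p under 0.05 (limma, Benjamini-Hochberg over all 18417 genes). In cultured cells measured in bulk, fewer cells expressing a gene and less RNA per cell cannot be told apart.

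The comparison asked how these regulators differed between SAHA-treated and control cells. All 3 SNAI genes, TWIST1 and ZEB2 rose, whereas ZEB1 and VIM fell. The ZEB2 call was lost under several alternatives, and a second, dimmer ZEB2 probe set differed by -0.10 without passing. TWIST2, PRRX1 and GRHL2 did not pass the test. The number called was thus 7 of 10, beside 60% of all genes, with 5 higher (31.1% of all genes were called higher) and 2 lower (28.9% of all genes). The share of the 10 was near that background, so the count itself is not a result about these genes. Only SNAI1 changed at least 2-fold, in a data set where 5.84% of genes rose and 5.42% fell by that much. The median change of the 10 genes was 0.19, beside -0.0027 over all genes. Without overlap of the 3 SAHA and 3 control arrays were 9 of the 10, 5 of them higher and 4 lower, against 65.4% of all genes, of which 33.8% were higher and 31.6% lower. At an unadjusted p under 0.05, 63.3% of all genes passed.

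**Figure D1:**
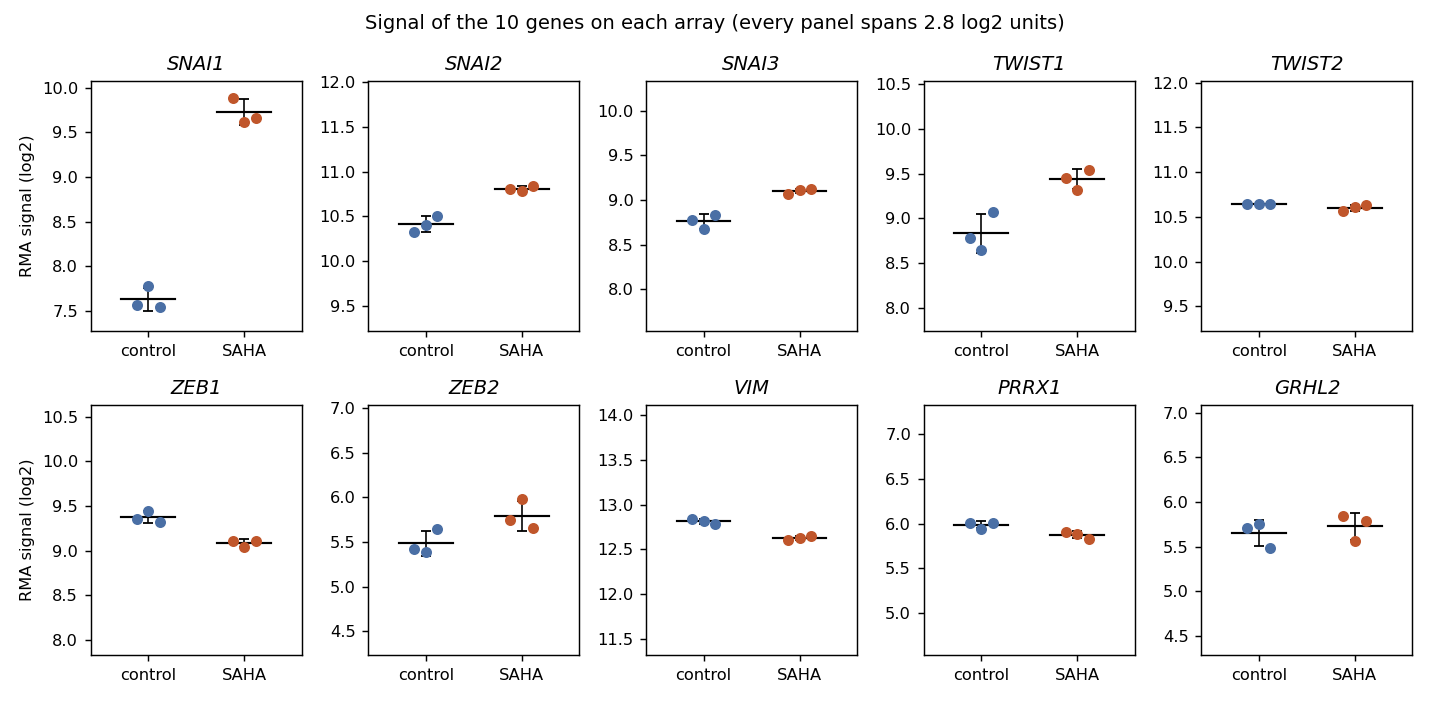
RMA signal (log2, vertical axes, each panel spanning 2.8 units) of the 10 genes on the 3 control arrays (blue) and the 3 SAHA arrays (orange), with horizontal lines for means and bars for the SD. SNAI1 is separated by about 2 log2 units, while the groups of GRHL2 overlap.

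SNAI1, which encodes Snail, the founding repressor of E-cadherin, showed the largest change of the 10. Its level was 7.57, 7.78 and 7.55 on control arrays 1 to 3 and 9.89, 9.62 and 9.66 on SAHA arrays 1 to 3. On the linear scale these are signals of 187 to 220 in control and 789 to 950 in SAHA. The lowest SAHA array was far above the highest control array. The mean went from 7.63 ± 0.13 to 9.72 ± 0.15 (SD, n = 3), a 4.26-fold rise with a 95% interval of 1.88 to 2.30 on the log2 scale (limma adjusted p = 3.72e-07). Among all genes it was the 186th largest rise, and 2.13% of genes had a change of larger size.

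SNAI2, which encodes Slug, a repressor prominent in neural crest and wound edges, read 10.33, 10.40 and 10.51 in control and 10.81, 10.78 and 10.84 in SAHA. The groups did not overlap, and the rise was 1.32-fold (0.40 on the log2 scale, 95% interval 0.27 to 0.52, limma adjusted p = 0.000329). SNAI3, the least studied gene of the family, read 8.78, 8.67 and 8.83 in control and 9.07, 9.11 and 9.12 in SAHA. Its rise was 1.27-fold (0.34, interval 0.22 to 0.46, limma adjusted p = 0.000582). The probe set of the antisense transcript SNAI3-AS1 was at 6.75 ± 0.08 in control and 6.77 ± 0.20 in SAHA (SD, n = 3), with overlapping groups.

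The change of SNAI1 exceeded that of SNAI2 by 1.69 and that of SNAI3 by 1.75 log2 units. For both pairs the per-array differences of the groups did not overlap. The two-sided exact permutation p was 0.1 for each, the smallest that 3 against 3 arrays allow, and 0.125 after adjustment over 5 pairs compared, so the design could not pass the threshold here. The changes of SNAI2 and SNAI3 differed by 0.06, with overlapping per-array differences (exact p = 0.6, adjusted 0.6).

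TWIST1, a factor of cranial mesenchyme and limb bud, read 8.78, 8.64 and 9.07 in control and 9.45, 9.32 and 9.54 in SAHA. Every SAHA array was above every control array, although the control arrays spread more than those of the other called genes (SD 0.22). The rise was 1.52-fold (0.61, 95% interval 0.35 to 0.86, limma adjusted p = 0.00145).

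TWIST2, its close paralog, read 10.64 on all 3 control arrays (SD 0.003) and 10.56, 10.61 and 10.63 in SAHA. All SAHA arrays were below control, but the difference was only -0.04 with an interval of -0.14 to 0.05 and did not pass the test (limma adjusted p = 0.429). Its sign turned to 0.006 when the arrays were quantile normalized again. The TWIST1 and TWIST2 changes differed by 0.65 without overlap of the per-array differences (exact p = 0.1, adjusted 0.125). Whether the probe sets of these similar genes share signal was not tested.

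ZEB1, the zinc-finger repressor most closely tied to loss of epithelial identity in carcinoma, read 9.36, 9.45 and 9.32 in control and 9.11, 9.04 and 9.11 in SAHA. The groups did not overlap, and the level fell by 0.29 on the log2 scale (95% interval -0.41 to -0.18, limma adjusted p = 0.00112).

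ZEB2, also called SIP1, read 5.42, 5.39 and 5.64 in control and 5.74, 5.98 and 5.66 in SAHA. SAHA array 3 lay just above control array 3. The rise was 1.24-fold (0.31, interval 0.08 to 0.54, limma adjusted p = 0.0256). The call was lost when control array 1 (adjusted p = 0.0817), control array 2 (0.0862) or SAHA array 2 (0.0705) was left out and with an ordinary unmoderated test (0.111), and over all alternatives its adjusted p ran from 0.0113 to 0.217. A second ZEB2 probe set read 3.60, 3.64 and 3.61 in control and 3.50, 3.59 and 3.47 in SAHA, a difference of -0.10 opposite in sign (limma adjusted p = 0.106 over all probe sets). With the mean of both probe sets the change was 0.11 (adjusted p = 0.217). ZEB2 and ZEB1 changes differed by 0.60 (exact permutation p = 0.1, adjusted 0.125). That difference used the brighter ZEB2 probe set only.

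VIM read 12.84, 12.82 and 12.78 in control and 12.61, 12.63 and 12.65 in SAHA. The fall was small, at -0.18 (95% interval -0.28 to -0.09, limma adjusted p = 0.00536), and the groups did not overlap. PRRX1 read 6.01, 5.94 and 6.01 in control and 5.91, 5.88 and 5.83 in SAHA, again without overlap, but its difference of -0.11 missed the threshold (limma adjusted p = 0.0634). GRHL2 read 5.71, 5.76 and 5.49 in control and 5.84, 5.56 and 5.79 in SAHA. The groups of GRHL2 overlapped, with a difference of 0.08 and an interval of -0.14 to 0.29 (limma adjusted p = 0.53). Detection calls were not used here, so it is not settled whether the low signals of ZEB2, PRRX1 and GRHL2 stand above background, and differences of such dim genes may be compressed.

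Control array 3 was the control array nearest to SAHA for 6 of the 7 called genes. It was the highest control array for SNAI2, SNAI3, TWIST1 and ZEB2 and the lowest for ZEB1 and VIM. Over all called genes it was nearest in 35% of cases. Without that array, 7 of the 10 genes were called as before, TWIST1 at 0.73 and SNAI1 at 2.05.

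**Figure D2:**
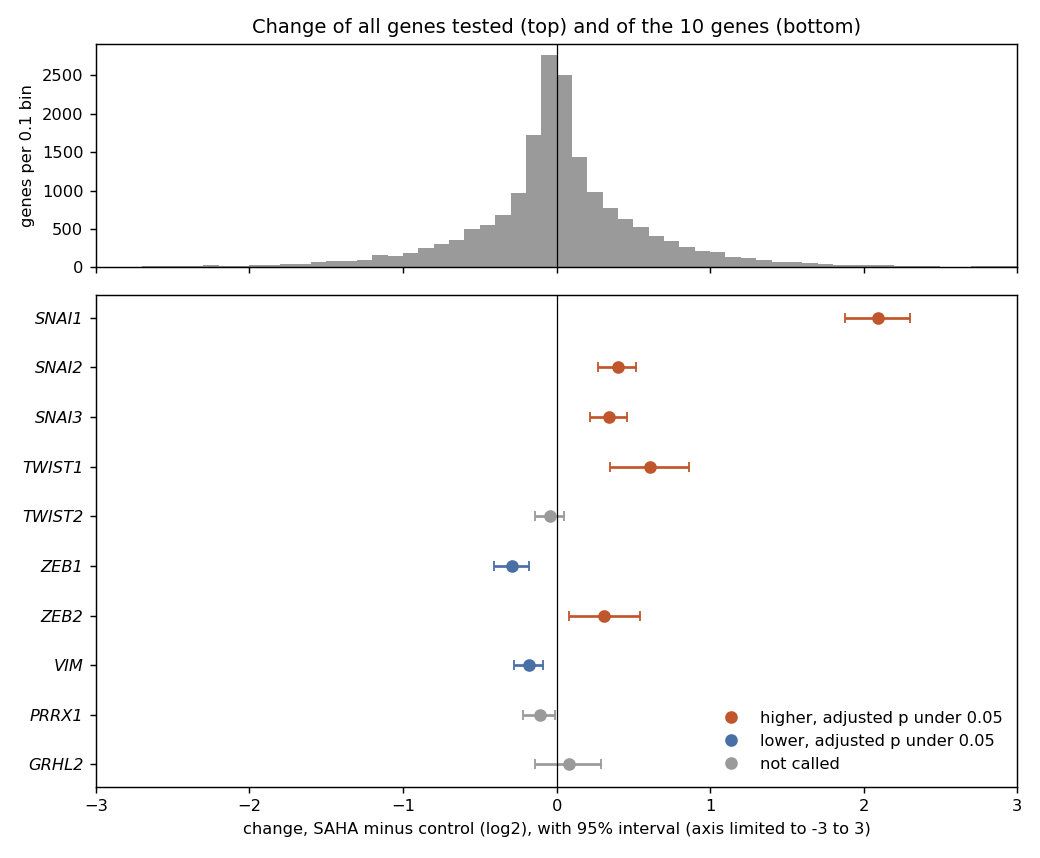
Change from control to SAHA (log2, horizontal axis from -3 to 3) of all genes as a histogram (top, genes per bin of 0.1, with 96 genes changed by more than 3 in size outside the axis) and of the 10 genes with 95% intervals (bottom). SNAI1 at 2.09 lies in the thin right tail, and the others lie between -0.29 and 0.61.

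The genes whose arrays followed SNAI1 most closely, by Euclidean distance of the 6 log2 values after subtraction of the control mean, were TUBB4A (distance 0.19), RAB3A (0.20), PLAC1 (0.22), GUCY1B1 (0.22) and PLK3 (0.22). TUBB4A encodes a neuronal beta-tubulin and rose by 2.12. RAB3A, a synaptic vesicle GTPase, rose by 2.14, and PLAC1, a placental gene, by 2.04. GUCY1B1, a subunit of soluble guanylate cyclase, rose by 2.08, and the stress-responsive kinase PLK3 by 2.06. Rises close to that of SNAI1 follow from this selection, and shared regulation was not tested.

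Genes of the corepressors that SNAI proteins recruit through their SNAG motif, with related Snail-binding proteins, were mostly lower. Of 18 measured, 5 were higher and 10 lower, while 3 missed the threshold, and the median change was -0.24. The share called was 83.3%, beside 60% of all genes, where 31.1% were higher and 28.9% lower. Genes at or above the median level were called more often, with 3660 higher and 3993 lower of 9209 when tested alone. Of this list 17 genes remained in that test, so the count itself is not a result about them. SUV39H1, a histone H3 lysine 9 methyltransferase, changed by -2.44 from a control level of 9.44 ± 0.06 (SD, n = 3). EZH2, the Polycomb methyltransferase, went from 10.96 ± 0.04 to 9.97 ± 0.01, and RCOR2, a CoREST corepressor, by -0.86. KDM1A changed by -0.50 and HDAC2 by -0.27, while HDAC1 rose by 0.39.

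All 14 genes listed as ZEB cofactors were called, 10 lower and 4 higher, with a median of -0.37. Over all genes 60% were called, 28.9% lower and 31.1% higher. Of the 14, 13 were at or above the median level, where genes were called more often. One of the risers, NIPA2, is a magnesium transporter gene that does not belong with them. Without it 10 of 13 fell and 3 rose, with a median of -0.41. MTA1, a NuRD subunit, fell from 10.63 ± 0.04 to 9.46 ± 0.01 (SD, n = 3). CTBP2 changed by -0.85 and CTBP1 by -0.69, and the histone-binding protein RBBP4 changed by -0.76.

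Of 12 measured TWIST partners and inhibitors, 5 rose and 5 fell (median 0.09), so 83.3% were called, beside 60% of all genes. At or above the median level, where genes were called more often, were 9 of the 12. TCF4, an E protein that pairs with TWIST, rose from 5.30 ± 0.01 to 6.27 ± 0.09, whereas TCF12, another E protein, fell by 0.70 on the log2 scale. The TCF4 signals in control were only 39.1 to 39.9 on the linear scale. Whether they stand above background is not settled. TCF3, the E2A gene, was at 9.79 ± 0.04 and 9.80 ± 0.04 (SD, n = 3). HAND1, a related basic helix-loop-helix factor, rose by 0.90, and ID4, which sequesters E proteins, by 0.80. The other ID genes, named after their values were seen, were split. ID2 rose by 0.78, while ID1 changed by -0.58 and ID3 by -0.15, both called lower.

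Of 19 genes that control the stability of the Snail protein 7 rose and 8 fell (median -0.08). Thus 78.9% were called, beside 60% of all genes. Again most of them, 17 of the 19, were at or above the median level, where genes were called more often. CTDSPL and CTDSP1, small phosphatases of a family that acts on Snail, changed by -0.92 and -0.81. The kinase gene LATS2 rose by 0.91. Protein levels were not measured.

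Among signals known to induce these factors, 12 of 18 genes were up and 5 down, with a median of 0.34. The share called was 94.4%, beside 60% of all genes, where 31.1% were higher and 28.9% lower. Of the 18, 15 were at or above the median level, where 3660 of 9209 genes were called higher and 3993 lower. This list was chosen with earlier results of these data known, so its counts are a description. TGFBR2, the type II receptor for TGF-beta, rose by 1.53, from 8.04, 8.11 and 8.91 on the control arrays to 9.93, 9.81 and 9.92 in SAHA, with control array 3 again nearest to SAHA. NFKB1, the p105 and p50 subunit gene of NF-kB, fell from 9.98 ± 0.06 to 8.17 ± 0.11 (SD, n = 3), and NOTCH1 fell by 1.18 on the log2 scale.

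Among 15 other factors that can induce the transition, 5 rose and none fell at the threshold (limma). The rising share of 33.3% was near the 31.1% of all genes called higher, while 28.9% of all genes were called lower. The list's changes ran from -0.17 to 0.83. ETS1 rose by 0.83, TEAD1, a partner of YAP, by 0.54 and NFATC2 by 0.51. Of 12 factors of the epithelial side, 4 rose (33.3%, again near the 31.1% of all genes) and 8 did not pass. Their changes ran from -0.06 to 0.77. GRHL1, a relative of GRHL2, rose by 0.77, KLF5 by 0.53, KLF4 by 0.50 and OVOL1, a repressor of ZEB1, by 0.27. The OVOL1 call was lost in the unmoderated test (adjusted p = 0.0758) and when SAHA array 2 was left out (0.0539). GRHL3 differed by -0.06, OVOL2 was at 6.71 in both groups, and the splicing factor gene ESRP2 was at 6.63 ± 0.06 and 6.65 ± 0.07 (SD, n = 3). These 3 did not pass, although GRHL3 was called lower with trend and robust options in limma (adjusted p = 0.0437) and in the unmoderated test (0.00247).

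**Figure D3:**
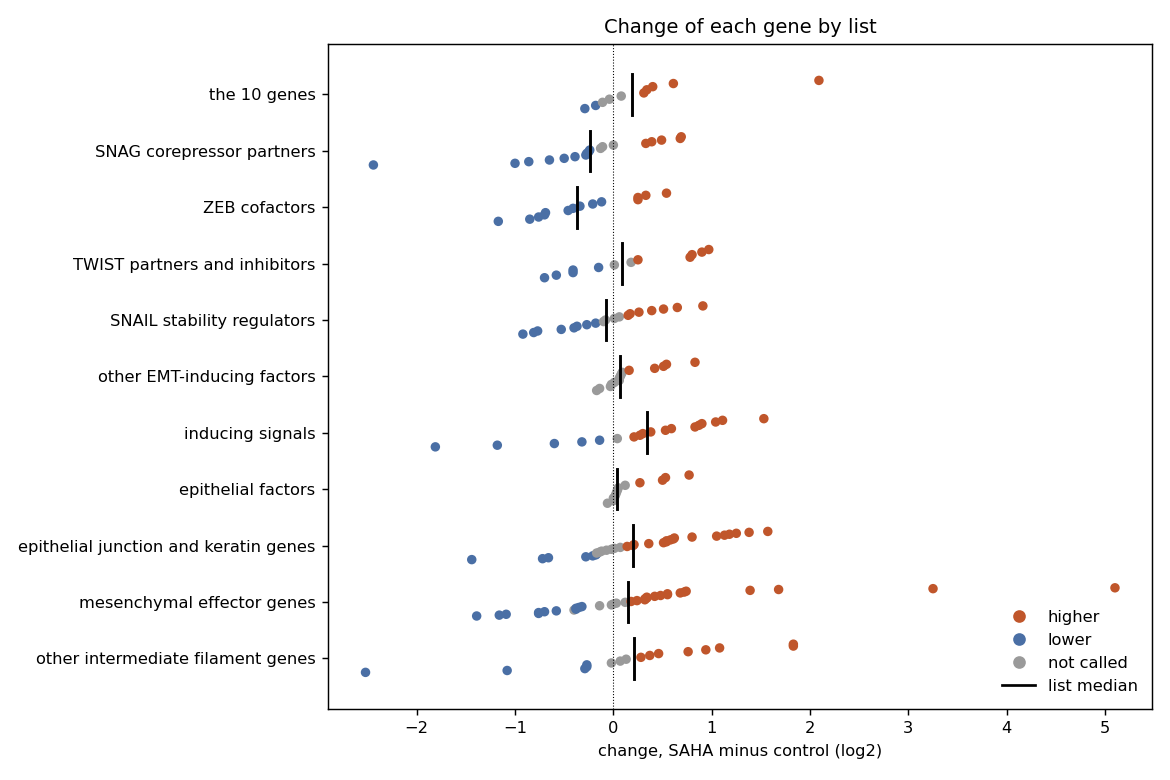
Change from control to SAHA (log2, horizontal axis) of each of the 10 genes and each gene in 10 lists (antisense and host transcripts and cell type markers are not drawn), coloured by call, with a black bar at each list median. Medians lie between -0.37 for the ZEB cofactors and 0.34 for the inducing signals, and every list drawn has genes on both sides of 0.

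Probe sets annotated to the precursors of the miR-200 family showed no call. MIR200A was at 4.90 ± 0.02 in control and 4.80 ± 0.09 in SAHA, MIR200B at 6.92 ± 0.07 and 6.93 ± 0.06, and MIR200C at 5.41 ± 0.20 and 5.39 ± 0.18 (SD, n = 3). MIR141 differed by -0.06 and MIR429 by 0.04. Both seed groups were thus without a called precursor (limma adjusted p from 0.145 to 0.884). MIR34A fell by 0.38 on the log2 scale, from 4.81 ± 0.06 to 4.43 ± 0.10 (limma adjusted p = 0.000713). Its signals were only 20.1 to 29.4 on the linear scale. With genes under a mean level of 5 left out, the list of antisense and host transcripts held no call. Whether the low signals of MIR34A, MIR200A, MIR141 and MIR200C stand above background is not settled. The arrays read host transcripts and precursors, and mature microRNAs were not measured.

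CDH1, the classical target, fell slightly, from 9.59 ± 0.07 to 9.42 ± 0.05 (SD, n = 3; -0.17, limma adjusted p = 0.0254). The CDH1 call was lost after a further quantile normalization (adjusted p = 0.126), under cyclic loess (0.0635), in the unmoderated test (0.0543) and when control array 3 (0.0625), SAHA array 2 (0.0893) or SAHA array 3 (0.0674) was left out. Of all 31 epithelial junction and keratin genes measured, 17 were higher, 7 lower and 7 not called, with a median of 0.20. Without CDH1 these counts were 17 higher, 6 lower and 7 not called of 30. Of the 31 genes 77.4% were called, beside 60% of all genes, where 31.1% were higher and 28.9% lower. Among the 31, 18 were at or above the median level, where genes were called more often. LLGL2, a polarity gene, rose from 7.50 ± 0.20 to 9.07 ± 0.05, and TJP3, the ZO-3 scaffold of tight junctions, by 1.38. KRT7, a keratin of simple epithelia, fell from 10.35 ± 0.14 to 8.91 ± 0.02 (SD, n = 3).

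Of these junction and keratin genes 18 had a RefSeq window, and 11 of the 18 (61.1%) held the E-box, beside 20.6% of all genes. The 13 without a window, CDH1, LLGL2 and KRT7 among them, had 7 higher, 4 lower and 2 not called (median 0.14). Of the 11 with an E-box 4 were higher, 3 lower and 4 uncalled, and their median change was 0.01. Among the 7 with a window but no E-box 6 rose, none fell and 1 did not pass (limma), with a median of 0.62. Over all genes 31.1% were called higher and 28.9% lower. CRB3, with 5 E-boxes, was at 7.43 ± 0.03 and 7.43 ± 0.02 (SD, n = 3), CLDN7, with 4, rose by 0.21, and AP1M2, with 3, differed by -0.17 without passing the test. AP1M2 was called lower with array weights (limma adjusted p = 0.0236) and when control array 2 was left out (-0.24, adjusted p = 0.0026). Of the genes without a match, CLDN4 rose by 1.25, LSR by 1.18 and CGN by 1.05, all of them tight junction genes and named after their values were seen. The difference between the groups of genes was not tested, and it carries no information on binding.

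**Figure D4:**
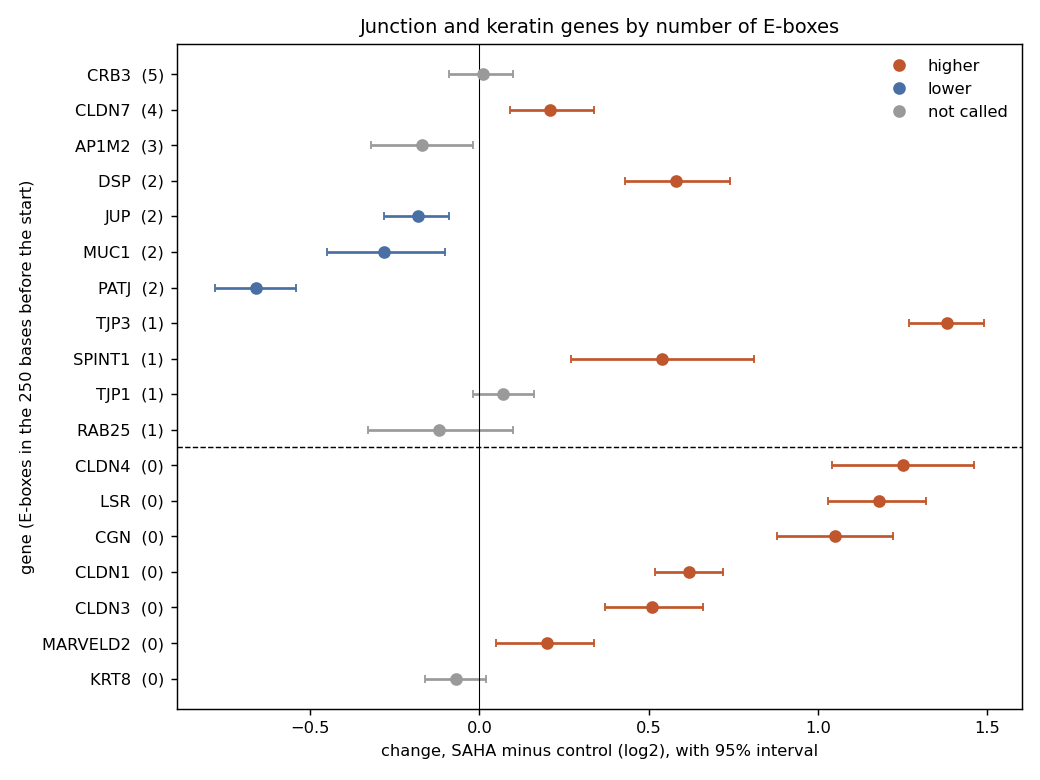
Change from control to SAHA (log2 with 95% interval, horizontal axis) of the 18 junction and keratin genes with a promoter window, ordered by the number of E-boxes in brackets, with a dashed line between genes with and without a match. Genes with matches lie on both sides of 0, and 6 of the 7 genes without one were called higher.

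Mesenchymal effector genes moved both ways, with 17 of 34 higher, 11 lower and a median of 0.15. The share called was 82.4%, beside 60% of all genes. At or above the median level, where genes were called more often, were 17 of the 34. FN1, the fibronectin gene, read 7.22, 7.34 and 7.87 in control and 10.73, 10.71 and 10.75 in SAHA, a 9.51-fold rise, with control array 3 nearest to SAHA. MMP1, the interstitial collagenase, rose by 5.10 log2 units and ITGB3, the integrin beta-3 gene, by 1.68. Among the genes that fell, named after their values were seen, MMP2, the gelatinase A gene, changed by -1.39, the membrane-bound protease gene MMP14 by -1.16 and FAP, a protease of activated fibroblasts, by -1.09. CDH2, the N-cadherin gene that typically replaces CDH1, was at 5.49 ± 0.05 and 5.60 ± 0.10 (SD, n = 3) and did not pass (limma adjusted p = 0.129), but was called higher when SAHA array 2 was left out (0.17, adjusted p = 0.0437).

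Other intermediate filament genes, the relatives of VIM, had 8 of 16 higher and 5 lower (median 0.21), or 81.2% called, beside 60% of all genes. Among the 16, 7 were at or above the median level, where genes were called more often. LMNB1, the lamin B1 gene, fell from 9.77 ± 0.01 to 7.25 ± 0.17 (SD, n = 3). The neuronal filament genes NEFM and INA both rose by 1.83. For INA the control arrays read 10.76, 10.65 and 10.03, with control array 3 farthest from SAHA.

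**Figure D5:**
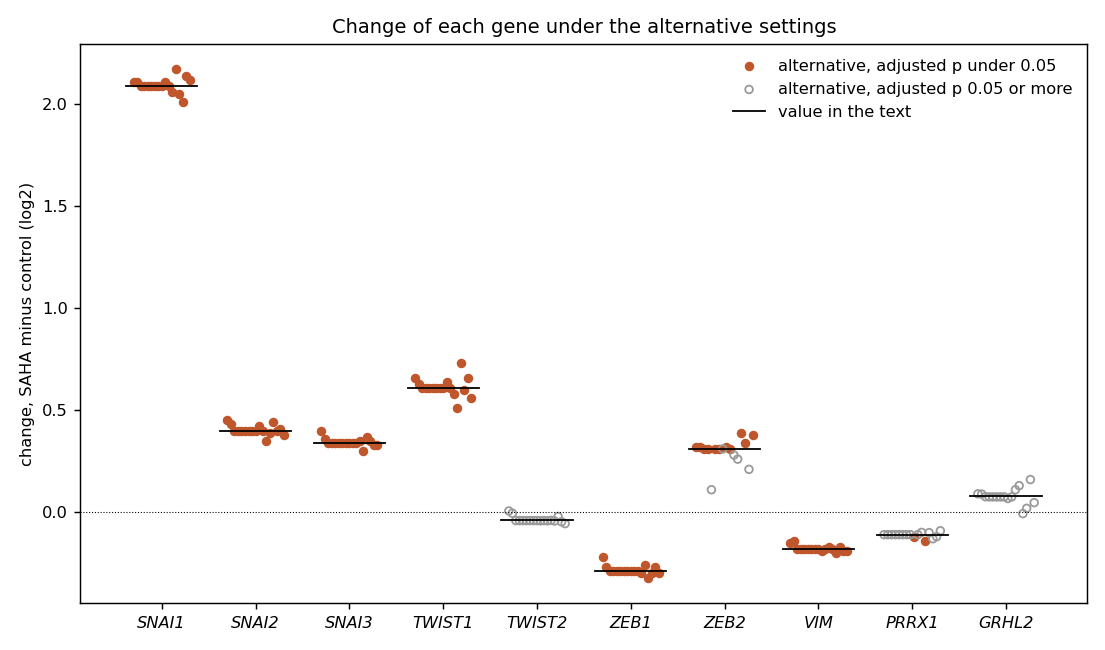
Change of the 10 genes (log2, vertical axis) under each alternative processing, filled where the adjusted p was under 0.05 and open otherwise, with a line at the value in the text. SNAI1 stays between 2.01 and 2.17, and ZEB2 has filled and open points between 0.11 and 0.39.

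Of 6 genes listed as rhabdoid markers 5 fell and none rose (limma), beside 28.9% of all genes called lower. All 6 were lower in SAHA without overlap, as were 31.6% of all genes. The list includes SMARCB1, which rhabdoid tumours typically lack, so these falls are not of one kind. A change with SAHA also does not check the labelled line. VIM was at 12.81, KRT8 at 13.55 and KRT18 at 13.54 in control. SMARCB1 was at 7.74 ± 0.04 (SD, n = 3) and fell by 0.51 on the log2 scale. Its control signal on the linear scale was 210 to 219, beside array medians of 142 to 149. Levels of different probe sets are not comparable, so these values do not rank SMARCB1 among genes. SMARCA4, the SWI/SNF ATPase, changed by -0.34 and MUC1, an epithelial mucin, by -0.28, and the MUC1 call was lost in the unmoderated test (adjusted p = 0.0684) and when SAHA array 2 was left out (0.0523). Whether the SMARCB1 signal comes from an intact transcript was not tested.

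No marker of another cell type was listed at 0, since the lowest signal of any probe set was 6.56. Of 10 skeletal muscle markers 2 rose and 1 fell (30% called, beside 60% of all genes). Their summed linear signal was 1111 to 1184 in control and 1257 to 1285 in SAHA. DES, the desmin gene, rose by 0.76 and CKM, muscle creatine kinase, by 0.45, while MYF6 changed by -0.14, a call lost under several alternatives (highest adjusted p = 0.151, without SAHA array 2). Of 8 endothelial markers 2 rose and 2 fell (50% called, beside 60% of all genes). Their sum was 7200 to 7464 in control and 2013 to 2094 in SAHA. That fall was carried by CDH5, the VE-cadherin gene, at 12.73 ± 0.03 and 10.54 ± 0.03 (SD, n = 3), and the other 7 summed to 502 to 514 in control and 557 to 570 in SAHA. KDR, a receptor for VEGF, rose by 0.64, and the receptor gene TEK changed by -0.18, a call lost under several alternatives (highest adjusted p = 0.117, without SAHA array 2). Of 9 blood cell markers 7 were measured, and 1 rose and 1 fell (28.6% called, beside 60% of all genes). The sum of these 7 was 950 to 1115 in control and 1994 to 2056 in SAHA. CD68, a macrophage lysosomal gene, carried that rise with a change of 1.55, and the other 6 summed to 465 to 479 in control and 423 to 439 in SAHA. The listed marker HBA1 is outside this sum, because its probe sets also name HBA2. Those shared probe sets differed by more than CD68, at 8.25 in control and 10.87 in SAHA, and were not tested. CD79A, of the B cell receptor, changed by -0.28, a call lost in the unmoderated test (adjusted p = 0.0511), and PTPRC, which marks all white cells, was at 4.05 ± 0.07 and 4.08 ± 0.12 (SD, n = 3). The part of these in the changes of the SNAI, TWIST and ZEB genes was not tested.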

How the data were processed

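Total RNA of 3 SAHA and 3 control samples was hybridised to Affymetrix whole-transcript arrays. The deposited values are signal intensities on a linear scale from 6.56 to 20338, summarised with RMA per the submitters' processing notes; the software behind it is not given in the sources used here. Because RMA equalises the arrays' distributions, a global shift in RNA cannot be seen. Log2 was taken before every test. Of 33252 probe sets, 19460 named 1 gene, 1754 several and 12038 none in the platform annotation. Symbols were updated by Entrez identifier (19429 matched), and where several probe sets named one of the 18417 genes, the brightest on average was kept. No dim gene was left out, so all 10 members were tested.

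SAHA was compared with control by limma 3.58.1 in R 4.3.3 (lmFit and eBayes, no covariates, two-sided, Benjamini-Hochberg over all genes). Differences between changes of members used exact permutation tests (scipy 1.17.1). The fit was tested on simulated data. The genes of the set and the lists were chosen with earlier results of these data known, so counts of lists are descriptions. All 10 genes are named, and of each list the 3 called genes with the largest change plus a fixed group of partners and epithelial factors. Some others are marked as named after their values were seen. PTPRC, KRT8, KRT18, SNAI3-AS1, the miR-200 precursors and the genes of shared probe sets are among those named without such a mark. Genes of the lists without a probe set of their own were not analysed here.

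The alternatives were a further quantile normalization, cyclic loess, median centring, filters on dim genes, the mean of probe sets, all probe sets, other variance models, array weights, the replicate block and leaving out each array. The whole 300-base window, the lists without NIPA2, CDH1, CDH5 or CD68 and the settings for E-box groups were added after seeing the data. Same-numbered control and SAHA arrays did not deviate together (correlations -0.041, -0.174 and -0.008), so the numbers were not taken as pairs. RefSeq sequences and symbols are from GRCh38.p14, and no other coordinates are given.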

Additional observations from a re-analysis of the deposited data

How the results depend on the processing

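Of 167 alternative values of the 10 genes, 158 kept their direction and their side of the threshold. SNAI1, SNAI2, SNAI3, TWIST1, ZEB1 and VIM did so under all 17 settings, with SNAI1 between 2.01 and 2.17. ZEB2 lost its call under 5 settings, and PRRX1 was called with array weights (adjusted p = 0.0485) and without control replicate 2 (0.0411). The number of members called was 6 or 7 with any 1 array left out, and all genes called were 10190 to 10928. With the sample number as a replicate block, 5520 genes were higher and 5081 lower, and no call among the 10 genes changed. The labels state no pairing by number, and 0 of 6 arrays correlated best with their own number.

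Differences near 0 turned sign. A further quantile normalization gave 0.006 for TWIST2, -0.041 for OVOL2, -0.021 for ESRP2, -0.034 for CRB3, -0.032 for MIR200B, 0.010 for MIR200C, 0.011 for MIR141 and -0.020 for SNAI3-AS1. Cyclic loess gave -0.005 for OVOL2, and array weights gave -0.008 for SNAI3-AS1. With 1 array left out the ranges were -0.007 to 0.16 for GRHL2, -0.013 to 0.029 for TCF3, -0.049 to 0.047 for OVOL2, -0.018 to 0.053 for ESRP2, -0.009 to 0.020 for CRB3, -0.025 to 0.049 for MIR200B, -0.14 to 0.055 for MIR200C, -0.13 to 0.010 for MIR141 and -0.064 to 0.13 for SNAI3-AS1. None of these genes was called in the test reported.

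Leaving out genes under the median level left fewer genes to test. It gave 3 calls among other EMT-inducing factors, 2 among epithelial factors, 17 among mesenchymal effector genes, 7 among intermediate filament genes and 0 among antisense and host transcripts, where a minimum level of 5 also gave 0. Junction genes with an E-box had a median of -0.034 after a further quantile normalization, 0.31 without genes under the median level and 0.040 with the whole 300-base window. Those without an E-box had 0.66 after a further quantile normalization or cyclic loess, and 0.84 with a minimum level of 5 or the whole window. The cause of the moved scaling values was not tested. Counts of called marker genes ran from 2 to 5 for both skeletal muscle and endothelial markers when 1 array was left out. Array number and the missing detection calls limit what can be said of dim genes.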

Other observations

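Probe sets that name several genes were outside the rule. Among those of listed genes, the probe sets shared by HBA1 and HBA2, the alpha-globin genes, showed the widest difference. They read 8.25 ± 0.07 in control and 10.87 ± 0.05 in SAHA, a difference of 2.62. The probe set shared by MIR205HG and MIR205, a microRNA that also represses ZEB genes, was at 7.30 ± 0.06 in control and 6.61 ± 0.06 in SAHA (SD, n = 3), a difference of -0.69. That naming OCLN, the occludin gene, and 1 other gene was at 10.27 ± 0.11 and 9.75 ± 0.03. The probe set naming DNM3OS and MIR214 was at 6.90 ± 0.02 and 6.86 ± 0.06, and that naming DNM3OS and MIR199A2 at 5.99 ± 0.10 and 5.98 ± 0.01. These probe sets were not tested.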
